A study of Mus musculus with 6 samples.

Results

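Vcam1, Icam1 and 8 integrin subunit genes of the macrophage surface (Itgal, Itgam, Itgax, Itgb2, Itga4, Itga5, Itga6 and Itgb1) were compared between BMDMs cultured with and without excess NaCl. The 10 genes were chosen by symbol, and 10 of 10 were found in the table of normalized values and tested among 15903 genes. BMDMs are macrophages grown from bone marrow in medium with M-CSF. The marrow came from 3 Cx3cr1GFP mice on the C57BL/6J background, whose genotype both groups share, and neither zygosity, sex nor age is given in the sources used here. Each mouse gave 1 library of unstimulated cells (control, n = 3) and 1 of cells kept in 62 mM excess NaCl for 24 h (NaCl, n = 3). Per the labels, floating cells were thrown away and the cells sequenced were the adherent ones, released with EDTA, which is a selection on attachment in a comparison of adhesion genes. These are cultures of bulk cells, in which fewer cells that express a gene and less RNA of it per cell cannot be told apart.

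Integrins are receptors made of an α and a β chain that tie a cell to the matrix or to another cell, and they are switched between weak and strong binding from inside the cell. Leukocytes carry β2 integrins, which bind ICAM proteins and complement fragments, together with β1 integrins, which bind matrix proteins and, in the case of α4β1, VCAM-1. VCAM-1 and ICAM-1 are members of the immunoglobulin superfamily that act as counter-receptors of these integrins. Both are best known from inflamed endothelium, and macrophages of several tissues also carry VCAM-1.

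The libraries held between 8520433 and 20123570 counts in the control group and between 4088065 and 11610020 in the NaCl group, with the lowest total in the NaCl library of mouse 3. That library had no count for 1235 of the genes tested, against 79 in the control library of mouse 3. The identity of the cells was read from marker lists. All 8 macrophage markers were detected, and their summed level was 15142 to 16755 CPM (a gene's counts scaled to the library total) in control and 23971 to 31243 CPM in NaCl. Lyz2, the lysozyme of phagocytes, carried most of that sum and rose from 9813 ± 524 to 19139 ± 3608 CPM (SD, n = 3; edgeR adjusted p = 0.0424), while Adgre1, which encodes F4/80, stood at 1613 ± 215 and 1405 ± 206 CPM.

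In the edgeR quasi-likelihood fit without a mouse term, 0 of the 10 adhesion genes passed an adjusted p of 0.05, against 104 of all 15903 genes (0.654%). At an unadjusted p under 0.05 there were 3 of the 10 (Vcam1, Itga6 and Itgb1), where the share over all genes was 12.6%. DESeq2 without a mouse term, the test the study used, called 1 of the 10, Vcam1, beside 3.12% of the genes it gave an adjusted p. With the mouse entered as a block, which compares the libraries within each mouse, edgeR called 1 of the 10 higher (Itgal) and 3 lower (Vcam1, Itga6 and Itgb1). The same fit called 4.6% of all genes higher and 4.3% lower. The CPM values of control and NaCl did not overlap for 3 of the 10 genes (30%), the same Vcam1, Itga6 and Itgb1, whereas 19.1% of all genes had groups that did not overlap. Of the 10 genes, 2 were higher and 4 lower in NaCl in each mouse, beside 3203 and 3725 of all 15903 genes. The median log2 fold change of the 10 genes was -0.03, beside -0.01 over all genes tested. The 10 genes were chosen with earlier results of these data known, so the place of Vcam1 in the list is not independent of its change.

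**Figure D1:**
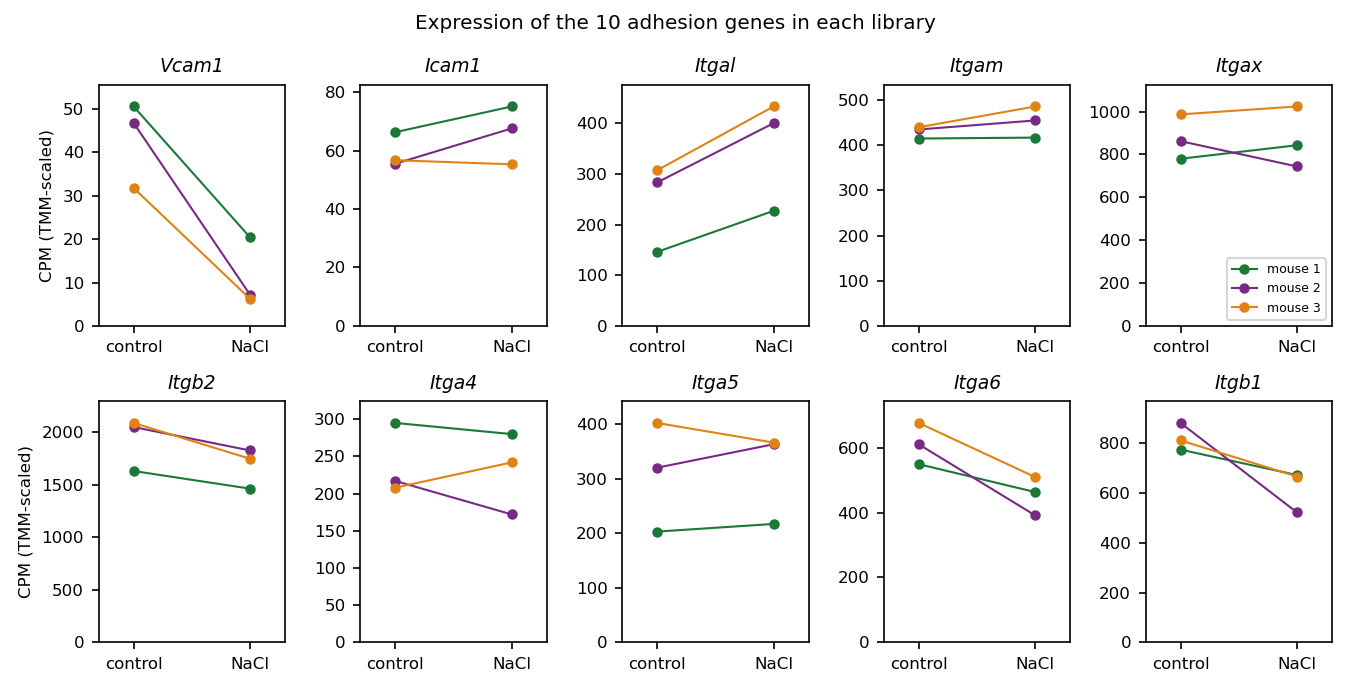
CPM of each of the 10 adhesion genes (y axes, each from 0, with TMM-scaled library sizes) in the control and NaCl library of each mouse. Lines join the libraries of a mouse. Vcam1 drops in each mouse, Itgal lines all run upward from different starting levels, least steeply in mouse 1, and Itgam lines are nearly flat.

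Among the counter-receptors, the Vcam1 transcript fell to 24.3% of its control level when libraries were compared within mice, and Icam1 was not distinguishable between the groups. Vcam1 (chromosome 3) had 50.6, 46.8 and 31.8 CPM in the control libraries of mice 1, 2 and 3, from 445, 517 and 630 counts. The NaCl libraries had 20.4, 7.16 and 6.23 CPM, from 183, 79 and 26 counts. All NaCl values lay below all control values, and the NaCl library of mouse 1 stood above the other NaCl libraries. Counting error alone gives the lowest value a 95% exact Poisson interval of 4.07 to 9.12 CPM and the NaCl library of mouse 1 one of 17.6 to 23.6 CPM, so these did not overlap. The group means were 43.1 ± 9.95 CPM in control and 11.3 ± 7.95 CPM in NaCl (SD, n = 3).

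The log2 fold change of Vcam1 was -1.89 (SE 0.39, 95% interval -2.76 to -1.02) without the mouse term, with an edgeR adjusted p of 0.0719. With the mouse as a block it was -2.04 (SE 0.19, interval -2.43 to -1.64, adjusted p = 4.51e-08). DESeq2 gave an adjusted p of 8.84e-05 without the mouse term. Within mice 1, 2 and 3 the log2 ratio of NaCl to control was -1.30, -2.68 and -2.32. Of the 8726 genes with a mean of at least 10 CPM, 2 had a lower log2 fold change than Vcam1 in each of the edgeR fits. Without the NaCl library of mouse 1, the fit without the mouse term gave -2.65 and passed (adjusted p = 0.00175), and without any other single library it did not.

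Icam1 (chromosome 9) had 66.3, 55.5 and 56.7 CPM in control and 75.1, 67.6 and 55.3 CPM in NaCl. The groups overlapped, and the library of mouse 3 moved the other way from those of mice 1 and 2. Its log2 fold change was 0.16 (SE 0.15, interval -0.18 to 0.49, adjusted p = 0.717), and 0.15 with the block (adjusted p = 0.534). In the GENCODE M21 models 11.7% of the exonic bases of Icam1 are also covered by Gm47079 on the other strand, which reads without strand information do not resolve.

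Set against Icam1 in the same library, Vcam1 had 0.763, 0.843 and 0.56 counts per Icam1 count in the control libraries. In the NaCl libraries there were 0.272, 0.106 and 0.113. The control values all lay above the NaCl values, and the difference of the mean log2 ratio was -2.27. The two-sided exact permutation test gave p = 0.1, the smallest that 3 against 3 libraries allow, and 0.5 after adjustment over the 5 gene pairs compared. This ratio does not depend on the scaling of the libraries.

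The β2 integrins are the typical leukocyte integrins, in which Itgb2 (CD18) is the shared β chain. Itgal (CD11a) pairs with it in the lymphocyte function antigen, Itgam (CD11b) in the complement receptor that binds iC3b, and Itgax (CD11c) in another complement receptor, and is also used as a marker of dendritic cells and some tissue macrophages. Itgal was higher in NaCl within each mouse and passed in the block fit. Itgam was also higher in each mouse, by log2 ratios of only 0.01, 0.06 and 0.14. Itgam, Itgax and Itgb2 did not pass in either fit.

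Itgal (chromosome 7) had 146, 283 and 307 CPM in control and 227, 400 and 433 CPM in NaCl. The groups overlapped because mouse 1 was low under both conditions, but the NaCl library was the higher one in each mouse. The within-mouse log2 ratios were 0.63, 0.50 and 0.49. The log2 fold change was 0.52 (SE 0.30, interval -0.14 to 1.19, adjusted p = 0.516) without the mouse term and 0.54 (SE 0.12, interval 0.31 to 0.78, adjusted p = 0.00259) with it, and DESeq2 with the block gave an adjusted p of 0.00034. With 1 mouse left out at a time and the block kept, Itgal passed in 2 of 3 fits and missed without mouse 1 (adjusted p = 0.119, log2 fold change 0.51).

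Itgam and Itgax lie near each other on chromosome 7 and encode similar proteins, so the first question is whether their reads can be told apart. The most alike coding stretch of the length of a read (75 bases) in the pair is shown for that reason. It lies in exon 14 of both genes on the plus strand of GRCm38 (GENCODE M21 models), at chr7:128101664-128101738 in Itgam and chr7:128136292-128136366 in Itgax. Capitals mark the bases that differ.
Itgam: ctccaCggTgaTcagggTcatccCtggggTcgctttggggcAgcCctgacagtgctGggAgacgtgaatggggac
Itgax: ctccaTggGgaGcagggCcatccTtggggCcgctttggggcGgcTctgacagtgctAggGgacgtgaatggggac
Of its 75 bases 65 match and 10 differ, and the longest run that both share is 15 bases. For Itgax, 5.01% of the 75-base windows of its transcripts also occur in Itgad, another β2 partner, and none in Itgam. For Itgam, 65.2% of the windows also occur in Gm49368, a gene model on the same strand that shares 68.7% of its exonic bases. Gm49368 itself had 0 to 5 counts in any library. A counter that drops reads lying on 2 genes would leave Itgam only its own 1.57 of 5.02 kb in these models, and the annotation the authors counted on was another release.

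**Figure D2:**
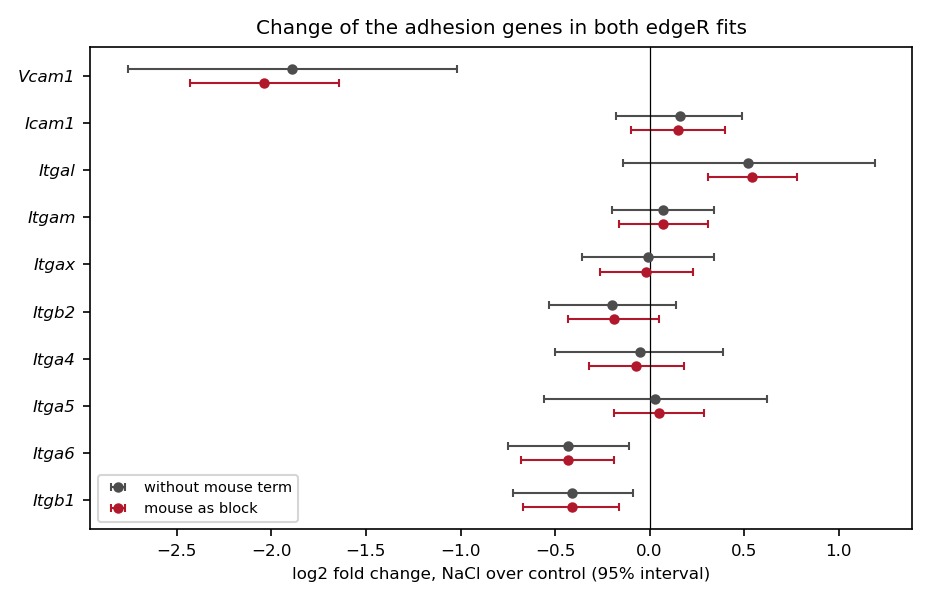
Log2 fold change of NaCl over control (x axis) for the 10 adhesion genes with its 95% interval, in the edgeR fit without a mouse term (grey) and with the mouse as a block (red). The block narrows the interval of Vcam1 and Itgal most, and the estimates of both fits lie close together for each gene.

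Itgam had 415, 435 and 440 CPM in control and 417, 455 and 486 CPM in NaCl. These values overlapped and spanned a narrow range. NaCl over control gave a log2 fold change of 0.07 (interval -0.20 to 0.34, adjusted p = 0.854), and with the block its interval was -0.16 to 0.31 (adjusted p = 0.789). Itgax had 780, 862 and 987 CPM in control and 843, 744 and 1024 CPM in NaCl, with the highest value of either group in mouse 3. Its log2 fold change was -0.01 (interval -0.36 to 0.34, adjusted p = 0.988), and the mice differed in sign, with ratios of 0.11, -0.21 and 0.05. The ratio of Itgax to Itgam counts was 2.04 ± 0.189 in control and 1.92 ± 0.251 in NaCl (SD, n = 3; two-sided exact permutation p = 0.7, adjusted over 5 pairs 0.8).

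Itgb2 (chromosome 10) was the most abundant of the 10 genes. It had 1630, 2048 and 2087 CPM in control and 1462, 1825 and 1746 CPM in NaCl. The NaCl library was the lower one in each mouse, by log2 ratios of -0.16, -0.17 and -0.26, and the groups overlapped. The log2 fold change was -0.20 (SE 0.15, interval -0.53 to 0.14, adjusted p = 0.649), and -0.19 with the block (interval -0.43 to 0.05, adjusted p = 0.362).

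The β1 group holds Itgb1 (CD29), the shared β chain, and the α chains Itga4 (CD49d, bound by VCAM-1 and fibronectin), Itga5 (CD49e, the classical fibronectin receptor) and Itga6 (CD49f, a laminin receptor). Itga6 and Itgb1 were lower in NaCl in each mouse, and Itga4 and Itga5 showed no common direction. Itga6 (chromosome 2) had 549, 610 and 676 CPM in control and 463, 391 and 509 CPM in NaCl. No NaCl value reached the lowest control value, and the gap was widest in mouse 2. NaCl over control gave a log2 fold change of -0.43 (SE 0.14, interval -0.75 to -0.11, unadjusted p = 0.0143, edgeR adjusted p = 0.262) and -0.43 with the block (SE 0.12, interval -0.68 to -0.19, adjusted p = 0.0203). With 1 mouse left out, the block fit called Itga6 in 1 of 3 cases, without mouse 2 (-0.32, adjusted p = 0.0178), and the others gave adjusted p-values up to 0.126.

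Itgb1 (chromosome 8) had 773, 880 and 810 CPM in control and 671, 521 and 665 CPM in NaCl. The groups did not overlap, and mouse 2 held both the highest control and the lowest NaCl value. The within-mouse log2 ratios were -0.20, -0.76 and -0.28. The log2 fold change was -0.41 (SE 0.14, interval -0.72 to -0.09, unadjusted p = 0.0164, edgeR adjusted p = 0.275), and with the block -0.41 (SE 0.13, interval -0.67 to -0.16, adjusted p = 0.0355). DESeq2 with the block left Itgb1 just outside the threshold, at 0.0501, and no edgeR block fit with 1 mouse left out called it (adjusted p 0.0587 to 0.14).

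Itga4 (chromosome 2) had 295, 217 and 208 CPM in control and 280, 172 and 242 CPM in NaCl. The order of the libraries followed the mouse more than the treatment, since both libraries of mouse 1 stood above the other 4. Its log2 fold change was -0.05 (interval -0.50 to 0.39, adjusted p = 0.943), and -0.07 with the block (interval -0.32 to 0.18, adjusted p = 0.819). Vcam1 and Itga4, which encode a ligand and the α chain of its receptor, were measured in the same libraries of bulk cells. Their log2 fold changes in the block fit were -2.04 and -0.07, and the 95% intervals do not overlap. The difference between the genes was not tested.

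Itga5 (chromosome 15) had 203, 320 and 402 CPM in control and 217, 363 and 366 CPM in NaCl. Mouse 1 was low in both groups and the groups overlapped. A log2 fold change of 0.03 (interval -0.56 to 0.62, adjusted p = 0.983) was found, and 0.05 with the block (interval -0.19 to 0.29, adjusted p = 0.876).

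The ratio of each α chain to Itgb1 was compared between the groups, in a test of 3 against 3 libraries that cannot give a p below 0.1 and does not use the pairing by mouse. Itga6 was counted 0.746 ± 0.0772 times per Itgb1 count in control and 0.735 ± 0.0398 in NaCl (SD, n = 3; two-sided exact permutation p = 0.8), a difference of -0.02 on the log2 scale. For Itga4 the ratio was 0.295 ± 0.0751 and 0.37 ± 0.0441 (log2 difference 0.35, exact permutation p = 0.3), with a higher ratio in NaCl in each mouse (log2 differences 0.13, 0.42 and 0.50). For Itga5 it was 0.374 ± 0.117 and 0.523 ± 0.188 (log2 difference 0.46, exact permutation p = 0.4), also higher in NaCl in each mouse (0.30, 0.94 and 0.15). After adjustment over the 5 pairs these p-values were 0.8, 0.667 and 0.667.

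Several of these genes differed between the mice. A test of the mouse term in the block fit, added after the data were seen, passed for 4 of the 10 genes and for 8.89% of all genes. Itgal (adjusted p = 3.67e-05) and Itga5 (adjusted p = 0.000385) were lowest in mouse 1 under both conditions. Vcam1 (adjusted p = 0.00587) and Itga4 (adjusted p = 0.0345) were highest in mouse 1 under both conditions. The NaCl value of Itgal in mouse 1, 227 CPM, lay below its control values in mice 2 and 3. What differed between the mice is not given in the labels.

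Levels were compared between genes after division by the exonic bases that no other gene covers in the GENCODE M21 models, in CPM per kb. The exons of all annotated transcripts of a gene were joined, so this length can exceed that of the transcript in use. It was 8.81 kb for Vcam1 and 12.9 kb for Itga4, and the order of the genes depends on it. In control BMDMs Itgb2 stood first at 630 ± 83, followed by Itgam at 273 ± 8.24, Itgb1 at 201 ± 13.2 and Itgax at 182 ± 21.7 (SD, n = 3). Itga6 at 67.8 ± 7.05, Itga5 at 62.5 ± 20.3 and Itgal at 37.3 ± 13.2 formed a middle group, and Itga4 at 18.7 ± 3.72 and Icam1 at 15.5 ± 1.53 came below them. Vcam1 was the lowest at 4.89 ± 1.13. The neighbours Itgb1 and Itgax, Itga6 and Itga5, Itga5 and Itgal, and Itga4 and Icam1 were separated by less than the sum of their SDs. The place of Itgam depends on the length used: on all of its exonic bases it was at 85.6, below Itgax.

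**Figure D3:**
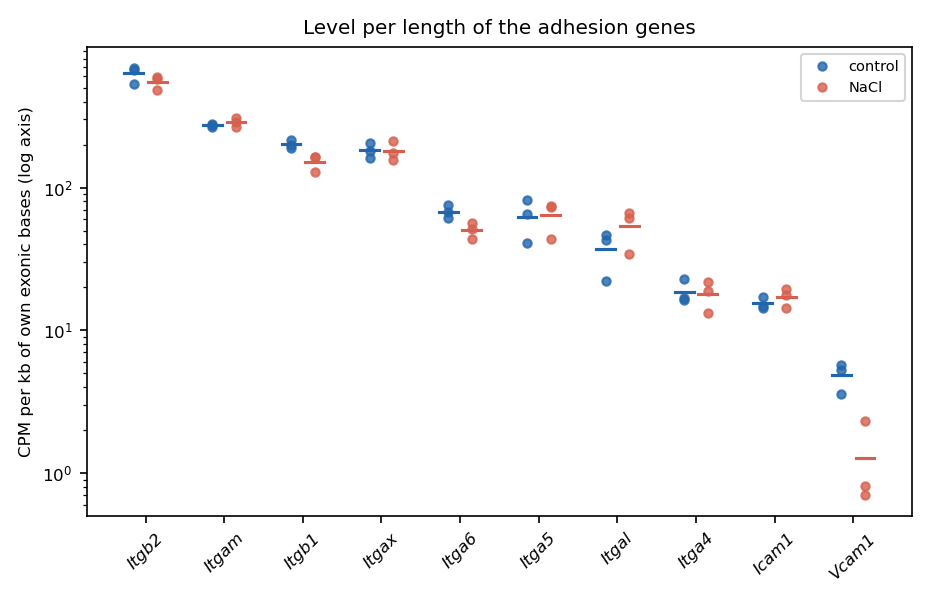
Level of the 10 adhesion genes in CPM per kb of their own exonic bases (log y axis), ordered by the control mean. Points are libraries (blue, control; red, NaCl) and short bars the mean of 3. Vcam1 is the lowest gene in both groups and the only one whose group means are visibly far apart on this axis.

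In NaCl the same 4 genes stood at the top on this scale, with Itgb2 at 550 ± 62.5, Itgam at 287 ± 21.9, Itgax at 181 ± 29.5 and Itgb1 at 152 ± 20.8. Vcam1 fell to 1.28 ± 0.903 CPM per kb. The summed level of the 4 β2 partner chains (Itgal, Itgam, Itgax and Itgad) relative to Itgb2 was 0.841, 0.745 and 0.779 in control and 0.994, 0.846 and 1.03 in NaCl. The lowest NaCl value of this ratio, 0.846 in mouse 2, was barely above the highest control value, 0.841 in mouse 1. No test was run on this ratio. Its size depends on the length given to Itgam: on all exonic bases it was 0.502, 0.462 and 0.498 in control and 0.614, 0.513 and 0.658 in NaCl. The sum of Itga4, Itga5 and Itga6 relative to Itgb1 was 0.659, 0.693 and 0.87 in control and 0.711, 1.02 and 0.917 in NaCl, with overlap between the groups.

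The rest of the adhesion machinery was read from 7 further lists, of which 105 of 122 genes were tested. Without the mouse term 2 of the 105 passed, both higher, beside 0.654% of all genes in either direction. With the block 10 were higher and 10 lower, beside 4.6% and 4.3% of all genes. DESeq2 gave 5 and 4 without the mouse term and 8 and 9 with it. Among the other integrin subunits, 0 of 15 were higher and 2 were lower with the block, where 4.6% and 4.3% of all genes were called. Itga9, an α chain that also binds VCAM-1 and tenascin-C, had 18, 22.4 and 16.3 CPM in control and 11.2, 10.9 and 8.62 CPM in NaCl. All NaCl values were below all control values (log2 fold change with the block -0.88, adjusted p = 0.000637, and 0.087 without it). Itgb3, the β chain of the vitronectin receptor, went from 17.5 ± 0.775 to 11.4 ± 3.72 CPM (SD, n = 3; block -0.64, adjusted p = 0.0199), a call that DESeq2 with the block did not make (adjusted p = 0.108). The abundant Itgav and Itgb5 did not pass, with log2 fold changes of 0.20 and 0.05, and are named here after their values were seen.

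Among 17 other adhesion molecules, 2 were higher and 1 lower with the block (all genes, 4.6% and 4.3%). The 1 lower is close to the share over all genes, and DESeq2 with the block called none of the 17 higher. Cd44, the hyaluronan receptor, had 530, 543 and 538 CPM in control and 379, 322 and 415 CPM in NaCl. The control libraries were nearly alike and the NaCl libraries were all lower (block -0.54, adjusted p = 0.00372, and 0.13 without it). F11r, a junctional adhesion molecule, was at 4.36 ± 1.47 and 8.04 ± 1.42 CPM (block 0.89, adjusted p = 0.00855), and Cdh1, which encodes E-cadherin, at 0.946 ± 0.549 and 2.22 ± 1.14 CPM (block 1.25, adjusted p = 0.0496). DESeq2 with the block gave adjusted p-values of 0.077 for F11r and 0.266 for Cdh1.

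Genes that switch integrins on or hold them inactive gave 0 higher and 2 lower of 15 with the block, beside 4.6% and 4.3% of all genes. Apbb1ip, which encodes the adaptor RIAM that brings talin to integrins, went from 278 ± 36 to 202 ± 20.7 CPM (block -0.45, adjusted p = 0.0133), and Cyth1, a regulator of β2 integrin adhesion, from 78.8 ± 9.5 to 54.1 ± 9.77 CPM (block -0.55, adjusted p = 0.00874). In the adhesion complex list, 1 of 27 was higher with the block, no more than the 4.6% of all genes, and 3 were lower (all genes, 4.3%). Ptk2, the focal adhesion kinase, had 32.7, 45.4 and 44.1 CPM in control and 50.6, 86.4 and 80.4 CPM in NaCl, without overlap (block 0.81, adjusted p = 6.14e-05). Vcl, which links adhesions to actin, stood at 63 ± 5.14 and 43.5 ± 2.82 CPM (block -0.54, adjusted p = 0.00459), and Parvg and Tns1, other adaptors of such sites, had block values of -0.52 and -0.71 (adjusted p = 0.00849 and 0.0036). Ilk, named after its values were seen, was at 0 to 0.782 CPM. In the models 89.7% of its exonic bases are covered by genes on the other strand, where reads without strand information cannot be assigned to either gene.

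**Figure D4:**
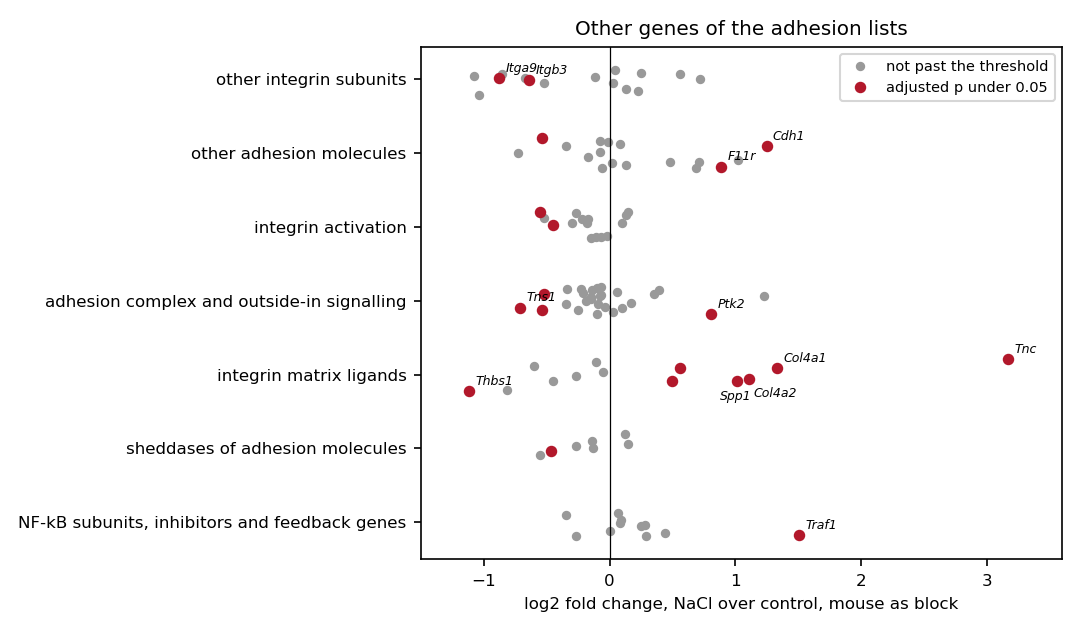
Log2 fold change of NaCl over control in the fit with the mouse as a block (x axis) for each tested gene of the 7 further lists (rows, with vertical scatter for legibility). Red points passed an adjusted p of 0.05, and those beyond 0.6 in either direction are named. Tnc lies farthest to the right, and the calls among integrin activation genes and other integrin subunits all lie left of 0.

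The matrix ligands of integrins gave 6 of 13 higher and 1 lower with the block, where 4.6% and 4.3% of all genes were called. Without the block 1 was higher, beside 0.654% of all genes in either direction. Tnc, which encodes tenascin-C, a ligand of α9β1, had 0.568, 0.724 and 1.06 CPM in control and 2.23, 10.7 and 8.86 CPM in NaCl. Each NaCl value was above each control value (log2 fold change 3.10, adjusted p = 0.0461, and 3.17 with the block, adjusted p = 1.33e-07). Spp1, which encodes osteopontin, a ligand of αvβ3, α4β1 and α9β1, stood at 4811, 10252 and 8768 CPM in control and 9623, 24061 and 15333 CPM in NaCl. It overlapped between the groups but was higher in NaCl in each mouse (block 1.01, adjusted p = 4.29e-06, and 0.251 without it). The basement membrane chains Col4a1 and Col4a2 had block values of 1.33 (adjusted p = 1.37e-05) and 1.11 (adjusted p = 1.24e-05). Thbs1, which encodes thrombospondin-1, was the one lower (block -1.12, adjusted p = 1.63e-06). The remaining calls were Fn1 (0.56) and Tgfbi (0.50), named after their values were seen. Of these 13 genes 8 also differed between mice, beside 8.89% of all genes.

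Sheddases, which cut adhesion molecules off the cell surface, gave 1 lower of 7 with the block (all genes, 4.3%), which was Adam9 (311 ± 25.4 and 224 ± 17.3 CPM, block -0.47, adjusted p = 0.0113). Because Vcam1 and Icam1 are textbook targets of NF-kB, its subunits, inhibitors and feedback genes were read as well. Of 11, 1 was higher in both fits and 0 were lower, beside 0.654% of all genes called without the block and 4.6% higher and 4.3% lower with it. This was Traf1, with 3.75, 1.9 and 2.72 CPM in control and 6.93, 8.43 and 7.9 CPM in NaCl, without overlap (log2 fold change 1.49, adjusted p = 0.048, and 0.000174 with the block). The list's median log2 fold change was 0.09.

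Other cell types that express these genes were looked for by their markers. Stromal cells of the marrow carry VCAM-1, and the 9 stromal markers summed to 1.27 to 4.89 CPM in control and 0.67 to 4.07 CPM in NaCl, with no count for Lum and under 10 counts over all libraries for 6 of the 9. The 9 endothelial markers summed to 111 to 137 CPM in control and 98.9 to 148 CPM in NaCl, of which Vwf made up 116 ± 16.1 and 118 ± 23.8 CPM, while Tek and Emcn had no count. Megakaryocyte and platelet markers summed to 11.2 to 15.7 and 5.75 to 14.5 CPM, and dendritic cell markers to 4.08 to 4.8 and 2.81 to 3.69 CPM, below in NaCl. Lymphocyte markers summed to 6 to 11.9 and 3.11 to 8.6 CPM, mostly Cd4 (block -0.93, adjusted p = 0.00723, and 0.073 in DESeq2 with the block), with no count for Cd3e.

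Neutrophil markers summed to 247 to 538 CPM in control and 268 to 390 CPM in NaCl, and 2 of 9 were lower with the block (all genes, 4.3%), Ngp (-0.56, adjusted p = 0.0188) and Mpo (-0.73, adjusted p = 0.0244). DESeq2 with the block called neither (0.0664 and 0.141), and Ngp was not lower in mouse 1 (log2 ratio 0.07). Monocyte markers summed to 135 to 286 and 110 to 334 CPM, and 1 of 7 was higher with the block (all genes, 4.6%), F13a1 (0.57, adjusted p = 0.0389). That call was lost in DESeq2 with the block (adjusted p = 0.519), and F13a1 had a log2 ratio of -0.19 in mouse 1. Among the macrophage markers, Csf1r, the receptor of M-CSF, went from 2083 ± 148 to 3441 ± 369 CPM (block 0.72, adjusted p = 0.000298, and 0.0522 without it). Mertk, a receptor for dying cells, went from 93.4 ± 19.2 to 47.3 ± 16.1 CPM (block -1.01, adjusted p = 4.29e-06, and 0.12 without it). The part of other cells, and of the selection for adherent cells, in the differences of the adhesion genes was not tested.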

How the data were processed

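RNA of 6 BMDM libraries, 3 control and 3 NaCl, was analysed. Per the labels and methods, fastp 0.20.0 and STAR 2.7.10b were used on 75-base single-end reads of a kit without strand information. The methods also give STAR, in its GeneCounts mode, as the counter of reads per gene. The authors deposited a table of raw counts, 1 count per gene and library, and a normalized signal, in which each count had been divided by the size factor of its library from DESeq2. The signal served only to match symbols, and every test used the counts. The methods pair mm10 with GENCODE vM32, an annotation of a different build. Therefore genes are placed by chromosome only, except for the coordinates of the stretch shown for Itgam and Itgax. These coordinates, exon overlaps, lengths and sequence come from GENCODE M21 on GRCm38. No value column was without a sample.

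Testing was done in edgeR 4.0.16 on genes whose counts summed to 10 or more (TMM, glmQLFit, glmQLFTest, R 4.3.3) without a further term, after the study's design, and p-values were adjusted by Benjamini-Hochberg over 15903 genes. CPM used TMM-scaled library sizes. The labels give mouse numbers 1, 2 and 3 in both groups. After the group means were subtracted, libraries of the same mouse correlated over genes at 0.43, 0.15 and 0.22 and other pairs at -0.35 to 0.12. The subtraction itself lowers the values of other pairs where those of the same mouse are positive. The 0.15 of mouse 2 was close to the 0.12 between its NaCl library and the control of mouse 3. A second fit took the mouse as its replicate block and is quoted beside the first for most of the adhesion genes. Genes of the further and marker lists quoted with the block value alone did not pass without it. Ratios were tested with exact permutation tests in scipy 1.17.1. Alternatives were DESeq2 1.42.0, limma-voom (limma 3.58.1), other scalings and filters, thinning to the smallest library and leaving out libraries or mice. The study itself tested with DESeq2 1.40.2. The mouse test and the per-length levels on own exonic bases were added after the data were seen. Scripts were tested on simulated data. Python 3.11.15 with pandas 2.3.3, numpy 2.4.6 and matplotlib 3.10.9 was used.

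The adhesion genes and all lists were chosen with earlier results of these data known. Named were all 10 adhesion genes and, of each further list, every gene past the threshold without the block and the 4 largest changes among those past it only with the block. Of marker lists, up to 3 genes of the highest level and those without a count could be named too. Intervals of single counts cover counting error only. The p-values measure the spread between these libraries of 3 mice.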

Additional observations from a re-analysis of the deposited data

How the results depend on the processing

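The count of adhesion genes past the threshold was 0 in both directions without the mouse term, and the replicate block changed it most. Higher in NaCl was 1 gene (Itgal) with the replicate block, with DESeq2 and the block, and with thinned libraries and the block, 0 without any single library, and 0 to 1 without a mouse with the block. Lower were 3 genes with the replicate block, 2 with DESeq2 and the block and with thinned libraries and the block, 1 (Vcam1) with DESeq2, limma-voom or a minimum total count of 1, 0 to 1 without a single library, and 1 to 2 without a mouse with the block. The replicate block changed no call of the other 6 genes. With limma-voom, Vcam1 passed only just, at an adjusted p of 0.05 after rounding.

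Over all genes, 76 were higher and 28 lower, against 732 and 684 with the replicate block, 245 and 155 with DESeq2, 452 and 354 with DESeq2 and the block, 362 and 300 with a minimum total count of 1, 50 and 16 with thinned libraries, and 501 and 395 with thinned libraries and the block. Leaving out a library without the block gave 8 to 123 higher and 0 to 46 lower, and leaving out a mouse with the block 469 to 758 and 417 to 661. In the further adhesion lists, 2 genes higher and 0 lower became 10 and 10 with the replicate block, 5 and 4 with DESeq2, and 8 and 9 with DESeq2 and the block. The cause of these differences was not tested.

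Vcam1 stayed between -2.65 and -1.59 under 19 alternatives. Sign changes arose only for genes that no fit called. Single left-out libraries moved Itgax between -0.14 and 0.10, Itga4 between -0.22 and 0.13 and Itga5 between -0.19 and 0.28. Itgax turned to 0.09, 0.01 and 0.10 without the control library of mouse 3 or the NaCl library of mouse 1 or 2, and to 0.09 without mouse 2 with the block. Itga4 turned to 0.12, 0.13 and 0.08 without the control library of mouse 1, the NaCl library of mouse 2, or mouse 2 with the block. Itga5 turned to -0.19, -0.08 and -0.09 without the control library of mouse 1 or the NaCl library of mouse 2 or 3, and to -0.01 without mouse 2 with the block. The fits with 2 mice and a block leave little spread to estimate, and depth limits low genes most in the NaCl library of mouse 3, which had 26 counts of Vcam1.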
